A study of Mus musculus with 11 samples.

Results

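Sohlh1 and 8 other genes whose known roles lie in germ cells were followed through 11 mouse medulloblastoma libraries. The 9 genes were Sohlh1, Sohlh2, Ddx4, Dazl, Mael, Stk31, Sycp3, Tdrd1 and Tex101, taken by symbol from the 38406 genes of the count table. They were selected on their read counts in these same libraries, so their levels below are a description and carry no test. All 9 were found, and 4 of them (Sohlh1, Stk31, Sycp3 and Tdrd1) passed the filter on low counts. The question put to the data was which of these germline genes were transcribed in which tumour model, and whether a wider set of germline genes and the genes that silence them differed between the models.

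Medulloblastoma is a tumour of the cerebellum, and Group 3 is its subgroup marked by high MYC. All tumours grew in the cerebellum of CD1 mice, were frozen fresh and untreated, and carried MYC with a partner, per the labels. In 2 constitutive models, MYC/Gfi1 (n = 2) and MYC/Otx2 (n = 3), the oncogenes were expressed without restriction to a cell type, and the series names both as earlier published Group 3 models. Gfi1 is a transcriptional repressor and Otx2 a homeobox activator of early brain and photoreceptor genes. The S100b-cell tumours (n = 3) expressed MYC and Gfi1 in S100b-positive cells, and the N1ICD tumours (n = 3) expressed MYC, Gfi1 and N1ICD, the intracellular part of the Notch1 receptor, in Math1-positive cells. The sources used here name neither the promoters behind the expression, nor the ages of the mice, nor the number of animals per library. P-values therefore measure the spread between these libraries, which may be technical in part.

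RNA was counted at the 3′ end of transcripts, so counts do not grow with transcript length. Libraries held 2.58 to 15.19 M counts, fewest in the N1ICD group and most in the S100b-cell group. Mitochondrial genes took 5.2 to 6.0% of counts in the constitutive groups, 14.7 to 18.5% in the S100b-cell group and 23.3 to 27.6% in the N1ICD group. The column names show 3 styles, 1 shared by the constitutive groups and 1 for each of the others, so library set and tumour model cannot be told apart except between the constitutive groups. A list of 8 genes of neural progenitors and tumour cells, summed, stood at 584 to 1300 CPM (counts scaled to equal library size) over the libraries, with no gene of the list at 0 in any group. In bulk tumour RNA, fewer cells of a type and less RNA per cell cannot be told apart.

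Germ cells use a set of genes that other tissues keep shut. SOHLH1 and SOHLH2 are basic helix-loop-helix transcription factors that act as partners in spermatogonia and in the oocytes of early follicles. DDX4 (also called VASA) is an RNA helicase and DAZL an RNA-binding protein of germ cells, and MAEL, TDRD1 and STK31 belong to the granules and protein networks in which PIWI proteins and their small RNAs (piRNAs) silence transposons. SYCP3 is a structural protein of the synaptonemal complex that holds paired chromosomes in meiosis, and TEX101 is a surface glycoprotein of male germ cells. In somatic cells many such genes carry a CpG-rich promoter that is methylated, and a Polycomb complex with E2F6 and the MAX partner MGA represses several of them. MYC binds as a pair with MAX to the E-box CACGTG, which MGA with MAX also recognises, and E2F6 recognises TCCCGC.

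Promoter windows of 300 bases, from 250 before to 50 after the annotated start (RefSeq, GRCm38.p6), were searched on both strands for those letters, because the labels name MYC as an oncogene of every model. Each copy was counted separately, and no CACGTG and TCCCGC copies shared bases in the windows of the genes described here. All 9 genes had a window, 12 windows in all. CACGTG lay in windows of 6 of the 9 genes (Sohlh1, Ddx4, Mael, Stk31, Sycp3 and Tdrd1), against 8.09% of all 27025 genes and 7.15% of all 32851 windows. TCCCGC lay in 3 of the 9 (Ddx4, Mael and Sycp3), which is 3 of the 12 windows, against 20.0% of all windows. A further motif searched in the same way, TAATCC, lay in 0 of the 9, against 7.06% of windows. The Sohlh1 window held 3 copies of CACGTG, a number reached by 29 windows in all, or 0.0883%. Of 103 further germline genes with a window, 20 held CACGTG, which is 19.4%. A match describes letters and shows no binding.

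The windows below are shown because they set the gene with the highest counts, Sohlh1, beside its partner Sohlh2, which had none, beside Stk31 and Sycp3, which had few, and beside Tdrd9 and Fkbp6, germline genes that differed between the models in opposite directions. CACGTG and TCCCGC, or its reverse complement GCGGGA, are in capitals, and each sequence runs 5′ to 3′ on the gene's strand.
Sohlh1 (chr2:25847199-25847498, minus strand): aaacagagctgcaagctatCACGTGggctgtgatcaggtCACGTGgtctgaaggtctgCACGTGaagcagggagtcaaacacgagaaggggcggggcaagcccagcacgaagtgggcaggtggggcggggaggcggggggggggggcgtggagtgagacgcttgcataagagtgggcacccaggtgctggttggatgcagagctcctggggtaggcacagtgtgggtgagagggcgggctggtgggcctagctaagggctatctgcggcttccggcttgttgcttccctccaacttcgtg
Sohlh2 (chr3:55181794-55182093, plus strand): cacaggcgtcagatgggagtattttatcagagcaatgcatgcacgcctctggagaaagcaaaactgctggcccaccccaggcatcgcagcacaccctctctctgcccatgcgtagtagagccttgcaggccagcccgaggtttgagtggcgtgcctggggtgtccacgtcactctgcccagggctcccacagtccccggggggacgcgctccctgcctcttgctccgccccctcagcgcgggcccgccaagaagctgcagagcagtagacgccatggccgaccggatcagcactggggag
Stk31 (chr6:49395354-49395653, plus strand): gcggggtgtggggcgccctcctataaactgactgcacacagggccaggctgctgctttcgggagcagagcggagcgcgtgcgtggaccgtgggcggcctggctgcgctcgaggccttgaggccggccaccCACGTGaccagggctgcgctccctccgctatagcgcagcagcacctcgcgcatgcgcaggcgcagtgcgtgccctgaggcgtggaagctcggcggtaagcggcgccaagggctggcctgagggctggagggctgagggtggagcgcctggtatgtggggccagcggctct
Sycp3 (chr10:88459337-88459636, plus strand): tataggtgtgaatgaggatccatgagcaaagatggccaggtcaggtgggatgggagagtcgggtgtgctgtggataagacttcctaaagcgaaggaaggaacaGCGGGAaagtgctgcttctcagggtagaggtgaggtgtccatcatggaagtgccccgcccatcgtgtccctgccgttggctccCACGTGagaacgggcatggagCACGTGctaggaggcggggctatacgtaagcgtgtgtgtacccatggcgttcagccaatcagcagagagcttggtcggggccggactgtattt
Tdrd9 (chr12:111971309-111971608, plus strand): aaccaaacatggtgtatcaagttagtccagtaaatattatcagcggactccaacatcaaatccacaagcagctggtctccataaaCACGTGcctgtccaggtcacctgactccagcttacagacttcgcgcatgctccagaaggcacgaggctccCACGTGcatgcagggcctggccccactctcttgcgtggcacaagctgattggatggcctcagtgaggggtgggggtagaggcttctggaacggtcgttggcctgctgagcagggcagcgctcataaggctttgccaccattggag
Fkbp6 (chr5:135349864-135350163, minus strand): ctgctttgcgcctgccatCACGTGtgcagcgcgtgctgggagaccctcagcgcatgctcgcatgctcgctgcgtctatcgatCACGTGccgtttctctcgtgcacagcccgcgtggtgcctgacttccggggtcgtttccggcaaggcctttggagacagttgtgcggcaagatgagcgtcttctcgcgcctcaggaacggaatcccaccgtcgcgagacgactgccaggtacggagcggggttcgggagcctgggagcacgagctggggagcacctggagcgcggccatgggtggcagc
The Sohlh1 window carries 3 E-boxes and no TCCCGC, and the Sohlh2 window carries neither. Tdrd9 and Fkbp6, shown because their counts lay on opposite sides between the models, as given below, each carry 2 E-boxes. The part of E-boxes in the counts was not tested. The ratio of observed to expected CpG was 0.525 for Sohlh1 and 0.545 for Sohlh2. Each of the other 7 genes had at least 1 window above 0.6, although another window of Tdrd1 was at 0.216. Of all windows, each counted singly and not by gene, 35.8% were above 0.6.

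Sohlh1 was present in the MYC/Otx2 tumours and at or near 0 elsewhere. The gene lies on chromosome 2 at 25842995 to 25847248, minus strand (GRCm38, the assembly also called mm10, with GENCODE M21 annotation), in 1 transcript of 8 exons that overlaps no other gene. Its level was 360.9, 620.9 and 164.1 CPM in MYC/Otx2 replicates 1, 2 and 3, from 2555, 4985 and 1420 counts. Both MYC/Gfi1 libraries and the 3 N1ICD libraries had 0 counts. In the S100b-cell tumours replicates 1 and 2 had 0, and replicate 3 had 19 counts, or 1.486 CPM.

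The lowest MYC/Otx2 library thus lay far above the highest library of any other group. The group mean was 382 CPM ± 229 (SD, n = 3) in MYC/Otx2 tumours and 0.495 ± 0.858 (SD, n = 3) in S100b-cell tumours, a ratio of 771. Against the groups with no count, taken at a floor of 3 counts over the group, the MYC/Otx2 level was at least 1940-fold higher than in MYC/Gfi1 and at least 964-fold higher than in N1ICD. The N1ICD bound is lower because those libraries were shallow: 3 counts in 1 library correspond to 1.05 to 1.29 CPM there and to 0.35 to 0.436 CPM in MYC/Gfi1. The order of the groups below MYC/Otx2 is not resolved, since the S100b-cell counts came from 1 library of 3.

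Sohlh1 was the only 1 of the 9 genes whose groups did not overlap in each comparison with the MYC/Otx2 tumours. Over all 15228 tested genes, 20.1% lay wholly higher in MYC/Otx2 than in MYC/Gfi1 tumours, 21.8% lay wholly lower in S100b-cell than in MYC/Otx2 tumours, and 20.8% lay wholly lower in N1ICD than in MYC/Otx2 tumours. Since the gene was chosen with this pattern known, nothing is read from that count. In the other 3 comparisons none of the 9 genes had groups that did not overlap. Of all tested genes, 18.2% lay wholly higher and 19.8% wholly lower in N1ICD than in MYC/Gfi1 tumours. The shares were 22.4% and 18.9% in S100b-cell against MYC/Gfi1 tumours and 11% and 15.1% in N1ICD against S100b-cell tumours. In the directions in which none of the 9 genes stood apart, the shares were 23.6% lower in MYC/Otx2 than in MYC/Gfi1, 28.6% higher in S100b-cell than in MYC/Otx2 and 20.7% higher in N1ICD than in MYC/Otx2 tumours.

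Sohlh2, the partner factor, had no count in any of the 11 libraries. It lies on chromosome 3 at 55182028 to 55209957, plus strand. In the MYC/Otx2 tumours, 3 counts in 1 library correspond to 0.347 to 0.424 CPM. The Sohlh1 transcript was therefore counted in these tumours with no detectable Sohlh2 at this depth.

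**Figure D1:**
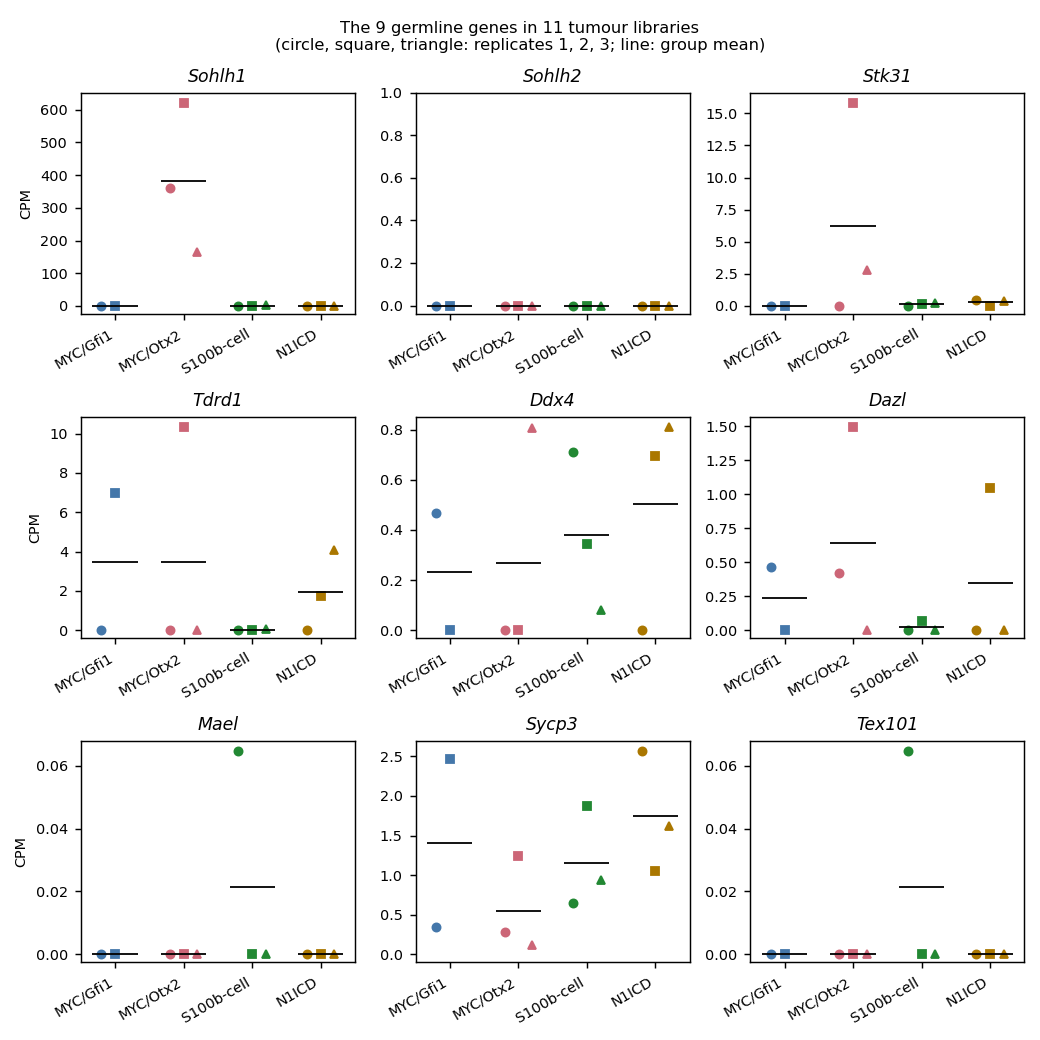
Each panel shows 1 of the 9 germline genes, with CPM on a linear axis whose range differs between panels and the 4 tumour groups along the bottom. Symbols are libraries and lines group means. Sohlh1 reaches 164.1 to 620.9 CPM in the MYC/Otx2 libraries and at most 1.486 CPM elsewhere, while the other genes stay at or under 15.82 CPM.

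Among the genes of RNA-binding granules and the piRNA pathway, Stk31 and Tdrd1 had more than 12 counts in a library, the highest count of Ddx4, Dazl, Mael or Tex101, in 2 libraries each. Stk31, a kinase-like Tudor protein on chromosome 6 at 49395604 to 49469501, was at 0, 15.82 and 2.773 CPM in MYC/Otx2 replicates 1, 2 and 3, from 0, 127 and 24 counts. Every other library had at most 3 counts, and both MYC/Gfi1 libraries had 0. The MYC/Otx2 mean was 6.197 CPM ± 8.45 (SD, n = 3), but replicate 1 was at 0, so the groups overlapped.

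The MYC/Otx2 library with the most Stk31, replicate 2, was also the one with the most Sohlh1. Without it the Stk31 level in that group rests on 24 counts of replicate 3. Stk31 overlaps the numbered gene model Gm17060 on the other strand. The sources used here do not name the strand setting of the counting, so reads of the pair cannot be told apart with certainty.

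Tdrd1, a Tudor protein that binds PIWI proteins, lies on chromosome 19 at 56826209 to 56870012. Its level was 0 and 6.972 CPM in the MYC/Gfi1 libraries, 0, 10.34 and 0 in the MYC/Otx2 libraries, 0, 0 and 0.07819 in the S100b-cell libraries and 0, 1.743 and 4.058 in the N1ICD libraries. Within MYC/Gfi1 and within MYC/Otx2, 1 library held all counts, 48 and 83 in turn. All 4 groups held a library at 0 and overlapped.

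Ddx4 and Dazl, the classic markers of germ cells, stayed at the level of a few reads. Ddx4 had at most 11 counts in a library, and its highest level was 0.8115 CPM, in N1ICD replicate 3, from 2 counts. Dazl had at most 12 counts, in MYC/Otx2 replicate 2, which is 1.495 CPM. MYC/Otx2 replicate 1 had 3 counts of Dazl and replicate 3 had 0.

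Mael, a piRNA pathway factor, and Tex101 each had 1 count in S100b-cell replicate 1 and 0 in the other 10 libraries. Ddx4 lies on chromosome 13 at 112598333 to 112652475, Dazl on chromosome 17 at 50279395 to 50293636, Mael on chromosome 1 at 166201201 to 166238747 and Tex101 on chromosome 7 at 24668007 to 24676675, all on the minus strand. No level can be ordered between groups for Ddx4, Dazl, Mael or Tex101 at this depth.

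Sycp3, on chromosome 10 at 88459569 to 88473236, was the only 1 of the 9 genes with counts in every library. Its level was 0.3497 and 2.469 CPM in MYC/Gfi1, 0.2825, 1.246 and 0.1156 in MYC/Otx2, 0.647, 1.867 and 0.9383 in S100b-cell and 2.572, 1.046 and 1.623 in N1ICD tumours. Counts ran from 1 to 27 per library and all groups overlapped. Sycp3 shares its locus with Chpt1, a ubiquitous phospholipid enzyme gene on the other strand, so its few reads carry the same doubt about strand as those of Stk31.

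Markers of the gonad's somatic cells were also counted. Of 12 marker genes of Sertoli, Leydig and granulosa cells, 7 had no count in the MYC/Otx2 tumours (Amh, Cyp17a1, Cyp11a1, Insl3, Hsd3b1, Fshr and Nr5a1), and the summed level there was 1.27 to 4.48 CPM. The sum was 5.01 and 131 CPM in MYC/Gfi1, 4.53 to 6.18 CPM in S100b-cell and 3.86 to 26.5 CPM in N1ICD tumours. The other 5 markers, Gata4, Inha, Dhh, Star and Foxl2, had counts in the MYC/Otx2 tumours, and the part of such cells in the Sohlh1 level was not tested. MYC/Gfi1 replicate 2, the library with the 131, was also the one with the Tdrd1 counts of its group and had the most granule neuron marker RNA, 4300 CPM against at most 532 CPM in any MYC/Otx2 library. Their part in the Tdrd1 counts was not tested either.

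Otx2 itself and the genes around Sohlh1 were set beside it. Otx2 was at 13.7, 42.47 and 96.96 CPM in MYC/Otx2 replicates 1, 2 and 3, where Sohlh1 stood at 360.9, 620.9 and 164.1. How the levels go together over these libraries was not tested. Otx2 was also at 13.72 CPM in N1ICD replicate 1, which had no Sohlh1 count. Ciliated and choroid epithelium markers summed to 4780 CPM in that library, against 5.23 and 6.49 CPM in N1ICD replicates 2 and 3. The part of such cells in its Otx2 level was not tested. The row of Myc stood at 27.51 and 11.04 CPM in MYC/Gfi1, 127.6, 31.51 and 66.45 in MYC/Otx2, 4.206, 2.005 and 3.753 in S100b-cell and 0.4287, 1.046 and 2.435 in N1ICD libraries, the last from 1, 3 and 6 counts. The row of Gfi1 stood at 3.614 and 3.05 CPM in MYC/Gfi1, 0.2825, 0 and 0.2311 in MYC/Otx2, 13.91, 2.075 and 3.988 in S100b-cell and 4.716, 0.6972 and 4.869 in N1ICD libraries. Myc was thus near the floor in the N1ICD libraries although the labels name MYC there. The sources used here do not say whether the transgenes' RNA carries the 3′ ends that were counted, so these rows do not check the labels.

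The nearest protein-coding genes, 3 on each side, were looked at after the Sohlh1 values were known. Gm13539, a numbered gene model, had at most 6 counts in a library. Glt6d1, 27147 bp away, and Lcn9, 17458 bp away, had 0 counts in all 11 libraries. Kcnt1, a potassium channel gene 16486 bp on the other side, was at 10.88, 22.3 and 4.16 CPM in MYC/Otx2 tumours and at 0.9325 and 75.24 CPM in MYC/Gfi1 tumours. Its log2 change between these groups was -1.61 ± 1.32 (SE), with an edgeR adjusted p of 0.444, and it passed the test in none of the 6 comparisons.

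Camsap1, a microtubule minus-end protein gene 79590 bp away, was at 242.1, 261.9 and 231.7 CPM in the MYC/Otx2 libraries and at 151.4 and 101.1 in the MYC/Gfi1 libraries. Its log2 change was 0.96 ± 0.24 (SE), edgeR adjusted p 0.0472. It was lower in S100b-cell than in MYC/Otx2 tumours (-1.94 ± 0.21, edgeR adjusted p 0.00105) and in N1ICD than in MYC/Otx2 tumours (-1.71 ± 0.21, edgeR adjusted p 0.00123). It was also lower in S100b-cell than in MYC/Gfi1 tumours (-0.98 ± 0.23, edgeR adjusted p 0.0419). The order of Sohlh1 between those groups was not resolved, and no link between the genes was tested. Ubac1, 151295 bp away, passed in none.

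The 5 tested genes whose log2 CPM followed Sohlh1 most closely over the 11 libraries were Otop3, Vsx1, Fezf2, Tnni3k and Lpar2. Pearson's r was 0.991, 0.9891, 0.9852, 0.9839 and 0.977 in that order. It is given as a description with no p, since the libraries share 4 groups and r rests on the step between MYC/Otx2 and the rest. Vsx1, a homeobox gene of retinal bipolar cells, was at 54.95, 64.52 and 61.71 CPM in the MYC/Otx2 libraries. It was at 0 in the MYC/Gfi1 and N1ICD libraries and had 2 counts in S100b-cell replicate 3.

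S100b-cell replicate 3, the only library outside the MYC/Otx2 group with Sohlh1 counts, thus also held 2 counts of Vsx1, and 1 of Otop3, a proton channel gene. All 3 genes had 0 counts in S100b-cell replicates 1 and 2. In S100b-cell replicates 1, 2 and 3 Fezf2 had 0, 2 and 1 counts and Lpar2 had 24, 8 and 16. Otx2 had 0, 40 and 0 counts there, and Tnni3k had 0 in each. Over the MYC/Otx2 libraries Sohlh1 had 8960 counts, Vsx1 1441, Lpar2 682, Tnni3k 87, Fezf2 82 and Otop3 70. The source of the counts in S100b-cell replicate 3 was not tested.

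Tnni3k was at 3.673, 4.235 and 3.12 CPM in the MYC/Otx2 libraries and 0 elsewhere. Lpar2, a lysophosphatidic acid receptor gene, was at 26.7, 29.27 and 29.81 CPM there and at most 1.553 CPM in any other library. The photoreceptor-like genes that mark part of Group 3 medulloblastoma, 8 in the list with Otx2 itself among them, summed to 60.2 to 256 CPM in MYC/Otx2 tumours and to at most 21 CPM in any other library, with Rcvrn at 0 in all groups. Within the MYC/Otx2 group the sum was 60.2, 115 and 256 CPM in replicates 1, 2 and 3. Sohlh1 stood at 360.9, 620.9 and 164.1 CPM there. In S100b-cell replicates 1, 2 and 3 the sum was 1.04, 4.15 and 1.8 CPM, and Sohlh1 had 0, 0 and 19 counts. The part of this list's genes in the Sohlh1 level was not tested.

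**Figure D2:**
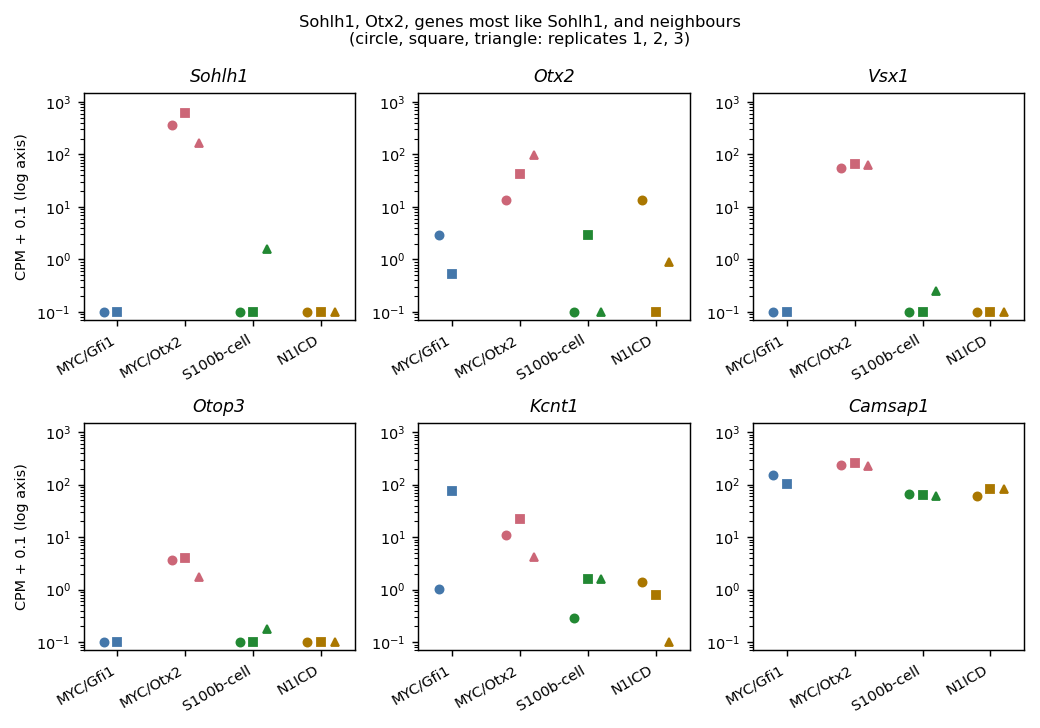
Sohlh1, Otx2, the like-patterned Vsx1 and Otop3 and the neighbours Kcnt1 and Camsap1 by library, as CPM + 0.1 on a log axis. Symbols are libraries and a symbol at the bottom near 0.1 stands for 0. Sohlh1, Vsx1 and Otop3 are high in the 3 MYC/Otx2 libraries only, with S100b-cell replicate 3 slightly above 0, whereas Kcnt1 spreads from 0 to 75.24 CPM over all groups.

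A wider set of germline genes, without the 9, was then compared: 139 genes in lists of transcription factors, RNA-binding and piRNA genes, meiotic chromosome genes, spermatid and sperm genes and oocyte genes. Most had few or no counts in the tumours: 46 of the 139 passed the low-count filter, against 15228 of all 38406 genes. Of the 37 spermatid and sperm genes 26 had at most 10 counts in every library, as did 17 of 35 meiotic, 14 of 19 oocyte and 11 of 20 transcription factor genes. Of the 28 RNA-binding and piRNA genes only 6 did. The 46 genes that passed the low-count filter were tested with edgeR's quasi-likelihood fit over all genes, and genes that passed had to be counted in at least 1 group, which favours those that differ.

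Between MYC/Otx2 and MYC/Gfi1 tumours, 2 of the 46 genes were higher and 1 lower in MYC/Otx2, which is 6.52% against 5.46% of all tested genes (2.43% higher, 3.03% lower). The median log2 change was -0.56 over the 46 genes and -0.14 over all genes. Between S100b-cell and MYC/Otx2 tumours 5 were higher and 4 lower, 19.6% against 17.9% (10% higher, 7.89% lower), with medians of 0.24 and 0.17. Between N1ICD and MYC/Otx2 tumours 4 were higher and 7 lower, 23.9% against 21.8% (12% higher, 9.76% lower), with medians of -0.13 and 0.14. Each share lay near that of all genes, and genes went both ways in each comparison.

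Within those counts, Piwil4, Tdrd9, Tdrd5 and Stag3 were higher in MYC/Otx2 than in S100b-cell and N1ICD tumours, whereas Fkbp6, Smc1b, Sycp2 and Rnf17 had no count in MYC/Otx2 tumours. Piwil4, the PIWI protein of fetal male germ cells that carries piRNAs to the nucleus, was at 76.14, 46.58 and 10.98 CPM in the MYC/Otx2 libraries. Every other library was at or under 0.8715 CPM, so the groups did not overlap. It was higher than in MYC/Gfi1 by a log2 change of 5.92 ± 1.01 (edgeR adjusted p 0.0169). That call was lost with limma-voom, without MYC/Gfi1 replicate 2 and without MYC/Otx2 replicate 1, over a range of adjusted p from 3.6e-08 to 0.0695 in 12 alternatives. Against MYC/Otx2, its log2 change was -6.57 ± 0.86 (edgeR adjusted p 0.00195) in S100b-cell and -8.24 ± 1.09 in N1ICD tumours (edgeR adjusted p 0.0016).

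Tdrd9, a helicase with a Tudor domain of the same pathway, was at 15.12, 25.04 and 90.6 CPM in the MYC/Otx2 libraries and at most 2.098 CPM in any other library. Its log2 change was -6.86 ± 1.15 in S100b-cell (edgeR adjusted p 0.00554) and -6.38 ± 1.23 in N1ICD tumours (edgeR adjusted p 0.00737) against MYC/Otx2. The second was lost with limma-voom, at an adjusted p of 0.054, within 1.18e-06 to 0.054 over 13 alternatives. Against MYC/Gfi1 it did not pass (4.66 ± 1.23, edgeR adjusted p 0.0551).

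Tdrd5, a Tudor protein of the chromatoid body, was at 13.7, 7.723 and 23.11 CPM in MYC/Otx2 and at most 1.407 CPM elsewhere. Against MYC/Otx2, its log2 change was -4.27 ± 0.92 in S100b-cell (edgeR adjusted p 0.0136) and -5.19 ± 1.07 in N1ICD tumours (edgeR adjusted p 0.00969). The first was lost without MYC/Otx2 replicate 3 and without S100b-cell replicate 2, at adjusted p up to 0.0549 in 13 alternatives. The rise over MYC/Gfi1 was 5.29 ± 1.19 (edgeR adjusted p 0.0368). It was lost in 6 of 12 alternatives, among them without MYC/Gfi1 replicate 2 and without each MYC/Otx2 library in turn, with adjusted p up to 0.11.

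Stag3, the cohesin subunit of meiosis, was at 90.55, 17.94 and 29.35 CPM in MYC/Otx2 and at most 2.614 CPM elsewhere. Its log2 change was -5.09 ± 0.94 in S100b-cell (edgeR adjusted p 0.00757) and -5.40 ± 1.03 in N1ICD tumours (edgeR adjusted p 0.00698). Both held in all 13 alternatives. Against MYC/Gfi1 it did not pass (4.14 ± 1.08, edgeR adjusted p 0.0516).

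Mei4, needed for meiotic DNA breaks, was at 2.684, 4.982 and 6.009 CPM in MYC/Otx2 and 0 in the N1ICD libraries. The N1ICD level was at least 11.9-fold lower, edgeR adjusted p 0.0106. In the S100b-cell tumours it was at 0.4529, 1.314 and 2.424 CPM, and the test was not passed (edgeR adjusted p 0.167).

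Other germline genes were missing from the MYC/Otx2 tumours. Fkbp6, a chaperone partner in the piRNA pathway, had 0 counts in the 3 MYC/Otx2 libraries and 10.72 and 3.776 CPM in MYC/Gfi1, at least 60.4-fold higher (edgeR adjusted p 0.0294). It was at 6.147, 11.62 and 5.239 CPM in S100b-cell tumours, at least 61.2-fold higher (edgeR adjusted p 0.00983). The first call was lost in 6 of 12 alternatives, among them without MYC/Gfi1 replicate 2 and without each MYC/Otx2 library in turn, with adjusted p up to 0.088. The second held in all 13. In N1ICD tumours, at 0, 0.6972 and 3.246 CPM, the groups overlapped at 0 although the difference passed (edgeR adjusted p 0.0317), and it was lost in 6 of 12 alternatives, among them without N1ICD replicate 3 and without each MYC/Otx2 library, with adjusted p up to 0.117.

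Smc1b, another meiotic cohesin subunit, also had 0 counts in MYC/Otx2. It was at least 9.46-fold higher in S100b-cell (edgeR adjusted p 0.0326) and at least 11.4-fold higher in N1ICD tumours (edgeR adjusted p 0.028), at 0.7764 to 2.111 and 0.8574 to 2.092 CPM. The first was lost in 6 of 11 alternatives, among them without each MYC/Otx2 library and without S100b-cell replicates 1 and 2, with adjusted p up to 0.08. The second was lost in 5 of 11, among them without each MYC/Otx2 library and without N1ICD replicate 3, with adjusted p up to 0.0674. Of the other meiotic cohesin subunits in the list, Rec8 had 9, 0 and 0 counts in the MYC/Otx2 libraries and its most, 52, in MYC/Gfi1 replicate 2, and Rad21l had at most 1 count in any library.

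Sycp2, which with SYCP3 builds the chromosome axis, had 0 counts in MYC/Otx2 and was at 6.002, 8.715 and 12.98 CPM in N1ICD tumours. That is at least 73.4-fold higher, edgeR adjusted p 0.0137, and held in all 13 alternatives. Against MYC/Gfi1 and S100b-cell tumours the edgeR adjusted p was 0.106 and 0.177. Rnf17, a Tudor and RING protein, was at 6.017, 3.942 and 0.8601 CPM in S100b-cell tumours and 0 in MYC/Otx2, at least 29.9-fold higher (edgeR adjusted p 0.0391). That call was lost in 5 of 10 alternatives, among them without each MYC/Otx2 library and without S100b-cell replicate 3, with adjusted p up to 0.0911.

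**Figure D3:**
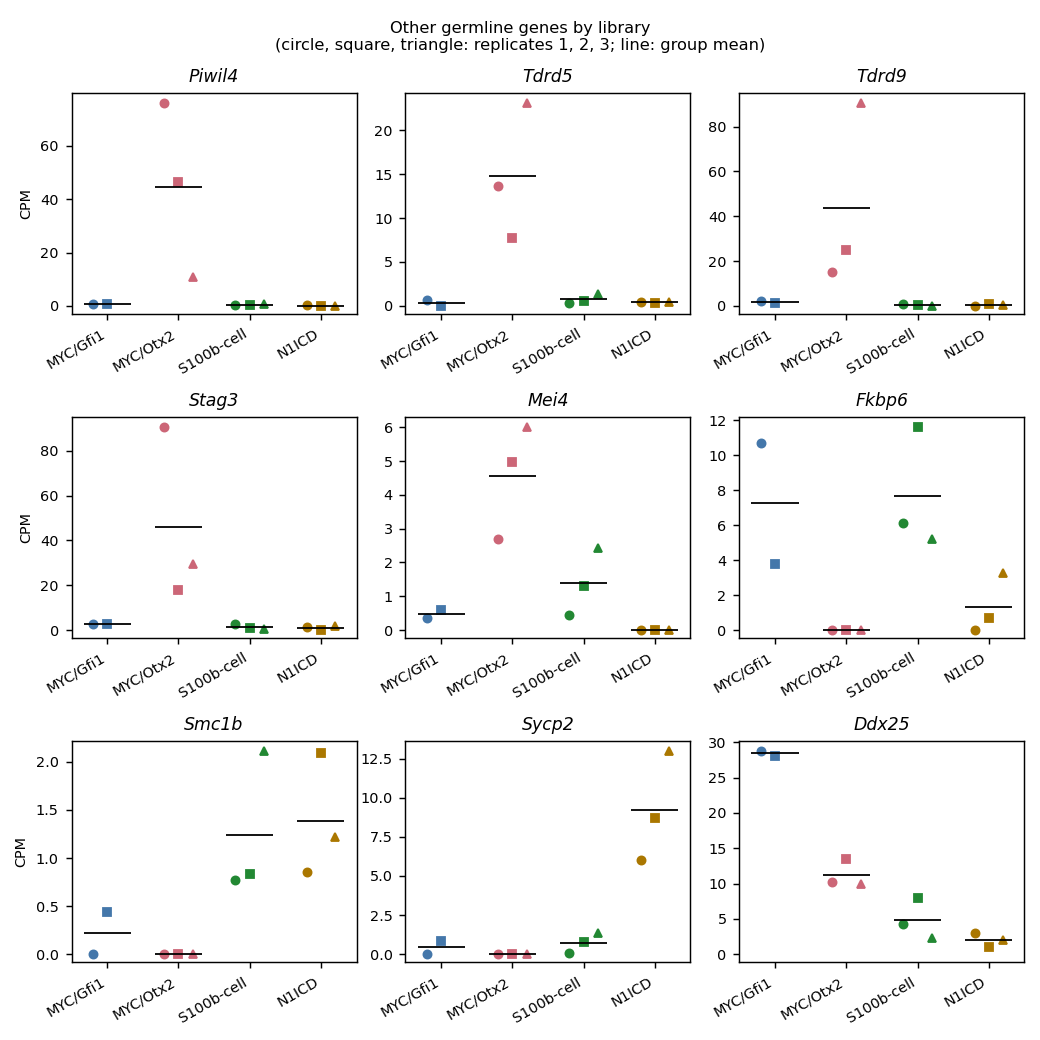
CPM of 9 other germline genes by library, on a linear axis whose range differs between panels, with lines for group means. Piwil4, Tdrd5, Tdrd9, Stag3 and Mei4 are highest in the MYC/Otx2 libraries, Fkbp6, Smc1b and Sycp2 are at 0 there, and Ddx25 is highest in MYC/Gfi1 at 28.79 and 28.03 CPM.

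**Figure D4:**
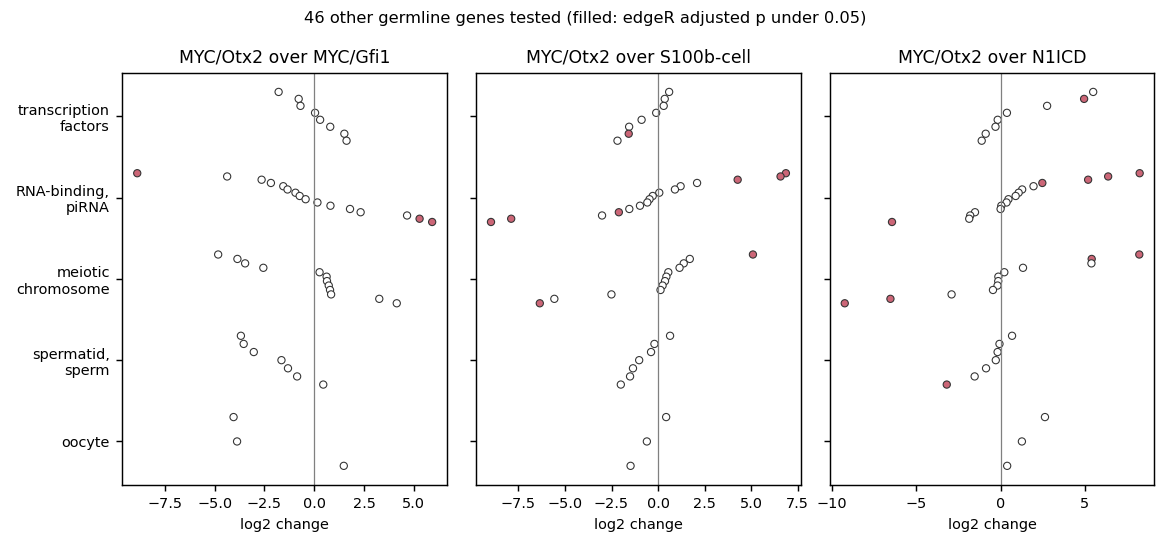
The log2 change of the 46 tested germline genes in MYC/Otx2 tumours over each other group, 1 point per gene in 5 lists, filled where edgeR's adjusted p was under 0.05. Points lie on both sides of 0 in each panel, with 3, 9 and 11 filled from left to right.

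In the comparisons without MYC/Otx2 tumours few of the 46 genes passed. In N1ICD against MYC/Gfi1 tumours 2 were higher and 4 lower, 13.0% against 11.5% of all genes (5.47% higher, 6.05% lower), with medians of -0.79 and -0.01. In S100b-cell against MYC/Gfi1 tumours 1 was higher and 1 lower, 4.35% against 4.35% (2.34% higher, 2.01% lower), with medians of 0.14 and 0.01. In N1ICD against S100b-cell tumours none of the 46 passed in edgeR's test, against 1.21% of all genes (0.808% higher, 0.407% lower). An unadjusted edgeR p under 0.05 was reached by 7 of the 46 and by 2844 of all 15228 genes. Of the 46, DESeq2 called 3 and limma-voom called 0 there, and calls over all genes are given at the end.

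Ddx25, a helicase of spermatids, was at 28.79 and 28.03 CPM in MYC/Gfi1 libraries, at 4.206, 8.022 and 2.268 in S100b-cell and at 3.001, 1.046 and 2.029 in N1ICD libraries. Against MYC/Gfi1, its log2 change was -2.55 ± 0.55 in S100b-cell (edgeR adjusted p 0.0343) and -3.82 ± 0.60 in N1ICD tumours (edgeR adjusted p 0.0074). The first was lost in 5 of 12 alternatives, among them without MYC/Gfi1 replicate 2 and without S100b-cell replicates 1 and 3, with adjusted p up to 0.134. The second was lost in 1 of 12, when only the groups compared were fitted, at 0.0871. Ddx25 was also called lower in N1ICD than in MYC/Otx2 tumours, lost only with limma-voom, at an adjusted p of 0.0526 in 13 alternatives. B lineage markers, 6 in the list, summed to 820 and 4810 CPM in MYC/Gfi1 and to 0.374 to 0.578 CPM in MYC/Otx2 tumours. The sum was 3.24 to 94.2 CPM in S100b-cell and at most 1.71 CPM in N1ICD tumours. Igkc, Igha, Cd79a and Cd79b were at 0 in N1ICD tumours. The part of these markers in the Ddx25 values was not tested.

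Taf4b, a TFIID subunit of germ cells, was at 15.74 and 8.86 CPM in MYC/Gfi1, at 73.11, 54.91 and 82.1 in S100b-cell and at 22.72, 69.72 and 47.47 in N1ICD libraries. It was higher than in MYC/Gfi1 by 2.51 ± 0.50 (edgeR adjusted p 0.029) and 1.92 ± 0.48 (edgeR adjusted p 0.0331). Each was lost in 6 of 12 alternatives, with adjusted p up to 0.141 and 0.174. Both were lost without MYC/Gfi1 replicate 2, the first also without each S100b-cell library and the second without N1ICD replicates 2 and 3. Dnd1, an RNA-binding protein of primordial germ cells, was at 14.95, 10.93 and 12.98 CPM in S100b-cell tumours against 2.543, 0.8719 and 5.547 in MYC/Otx2 tumours. The log2 change was 2.11 ± 0.60 (edgeR adjusted p 0.0375). It was lost without each S100b-cell library and without MYC/Otx2 replicates 1 and 2, with adjusted p up to 0.109. Its rise in N1ICD over MYC/Gfi1 tumours, 2.61 ± 0.73 (edgeR adjusted p 0.0462), was lost in 9 of 12 alternatives, among them without each of the 5 libraries compared, with adjusted p up to 0.135.

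Tle6, an oocyte gene, was at 4.896 and 179.5 CPM in MYC/Gfi1 and at 0, 2.092 and 0.4058 in N1ICD tumours, a log2 change of -6.68 ± 1.44 (edgeR adjusted p 0.0201). It was lost in 5 of 12 alternatives, among them without MYC/Gfi1 replicate 2 and without N1ICD replicate 3, with adjusted p up to 0.307. Gdf9, an oocyte growth factor, had 17 and 24 counts in MYC/Gfi1 and 0, 1 and 0 in N1ICD libraries (-4.27 ± 1.21, edgeR adjusted p 0.0481), a call lost when any 1 of these 5 libraries was left out, with adjusted p up to 0.152.

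Zbtb16, a factor of spermatogonial stem cells that other tissues also use, was at 0, 0 and 0.4058 CPM in N1ICD tumours. It was lower there than in MYC/Gfi1 (-5.64 ± 1.53, edgeR adjusted p 0.0418) and than in MYC/Otx2 tumours (-4.95 ± 1.49, edgeR adjusted p 0.0401). The first was lost without each of the 5 libraries compared, with adjusted p up to 0.277, and the second without each N1ICD library and MYC/Otx2 replicates 1 and 2, with adjusted p up to 0.386. Calr3, a chaperone of sperm, had 10, 8 and 6 counts in N1ICD and 2, 2 and 4 in MYC/Otx2 libraries. Its log2 change was 3.19 ± 0.73 (edgeR adjusted p 0.0147), lost only with no low-count filter, at 0.0511 as the highest of 13 alternatives. Mybl1, a meiotic transcription factor, was higher in S100b-cell than in MYC/Otx2 tumours by 1.58 ± 0.45 (edgeR adjusted p 0.0388). It was lost in 8 of 13 alternatives, among them without each MYC/Otx2 library and without S100b-cell replicates 2 and 3, with adjusted p up to 0.166.

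Tex15, a factor of transposon silencing in male germ cells, and Mnd1, a meiotic recombination factor, passed in none of the 6 comparisons. Tex15 ranged from 1.246 to 44.88 CPM over the libraries, highest in MYC/Gfi1 replicate 2. Mnd1 ranged from 16.85 to 47.47 CPM and was counted in every library. Tex19.1, another gene of the germline defence against transposons, was at 98.73 and 1.017 CPM in MYC/Gfi1, 6.639, 0.1246 and 26.23 in MYC/Otx2, 22.39, 203.3 and 40.74 in S100b-cell and 0.4287, 17.08 and 6.086 in N1ICD libraries. It varied widely within each group and passed in none of the comparisons, with edgeR adjusted p from 0.238 to 0.866. Prdm1, Tcfl5, Syce2, Catsper2, Brdt and Npm2, also among the most counted of their lists, passed in none either.

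The genes that keep germline promoters shut were all counted and tested. Of these 23 genes, 2 were higher in MYC/Otx2 than in MYC/Gfi1 tumours, 8.7% against 5.46% of all genes. In S100b-cell against MYC/Otx2 tumours 2 were higher and 4 lower, 26.1% against 17.9%, and in N1ICD against MYC/Otx2 tumours 6 were higher and 5 lower, 47.8% against 21.8%. The median log2 change was 0.68, -0.18 and -0.16 in those comparisons. The shares are not matched for count level, which bears on how easily a gene is called. Of the 23 genes 0 had at most 10 counts in every library. The 11 calls in N1ICD against MYC/Otx2 tumours became fewer whichever 1 library of these groups was left out, as given at the end. Mural cell markers, 6 in the list, summed to 238 to 6490 CPM in N1ICD and to 57.8 to 120 CPM in MYC/Otx2 tumours, where Myh11 was at 0, and their part in these differences was not tested. In MYC/Otx2 against MYC/Gfi1 tumours all 4 tested B lineage markers were lower, from summed levels of 820 and 4810 CPM in MYC/Gfi1 to 0.374 to 0.578 CPM in MYC/Otx2, where Cd79a, Cd79b and Ms4a1 were at 0. Progenitor and tumour cell markers, Mki67 and Top2a among them, summed to 854 and 584 CPM in MYC/Gfi1 and to 1210, 1110 and 1190 CPM in MYC/Otx2. Of these 8 markers 0 passed the test. Oligodendrocyte markers summed to 226 and 554 CPM in MYC/Gfi1 and to 24.4 to 70.9 CPM in MYC/Otx2. The part of these and the other cell type markers in the Dnmt1 and Trim28 changes between these groups was not tested.

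Dnmt1, the maintenance DNA methyltransferase, was at 278.6, 213 and 187.7 CPM in MYC/Otx2 libraries and at 114.2 and 104.3 in MYC/Gfi1 libraries. Its log2 change was 1.05 ± 0.25 (edgeR adjusted p 0.041). It was lost in 7 of 12 alternatives, among them without MYC/Gfi1 replicate 2 and without each MYC/Otx2 library, with adjusted p up to 0.135. Against MYC/Otx2, its log2 change was -1.61 ± 0.22 in S100b-cell (edgeR adjusted p 0.00219) and -1.44 ± 0.22 in N1ICD tumours (edgeR adjusted p 0.00267), and both calls held in all 13 alternatives.

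Trim28, the co-repressor that brings histone and DNA methylation to silenced loci, was at 588.5, 453.3 and 514.1 CPM in MYC/Otx2 and at 193.9 and 215.5 in MYC/Gfi1. Its log2 change was 1.34 ± 0.26 (edgeR adjusted p 0.0239). It was lost in 5 of 12 alternatives, among them without MYC/Gfi1 replicate 2 and without MYC/Otx2 replicates 1 and 3, with adjusted p up to 0.0816. Against MYC/Otx2 its log2 change was -1.20 ± 0.22 in S100b-cell (edgeR adjusted p 0.00763) and -1.34 ± 0.22 in N1ICD tumours (edgeR adjusted p 0.004).

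E2f6 was at 40.26, 93.54 and 87.94 CPM in MYC/Otx2, at 14.62 to 18.26 in S100b-cell and at 14.64 to 22.29 in N1ICD libraries. The log2 change was -2.22 ± 0.41 (edgeR adjusted p 0.00745) and -2.04 ± 0.41 (edgeR adjusted p 0.00876), and the change against MYC/Gfi1, 1.54, did not pass (edgeR adjusted p 0.0748). Max, the partner of both MYC and MGA, had a log2 change against MYC/Otx2 of -1.11 ± 0.24 in S100b-cell (edgeR adjusted p 0.0137) and -1.76 ± 0.24 in N1ICD tumours (edgeR adjusted p 0.00187). The first was lost without S100b-cell replicate 3, at 0.0531.

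Mga and Dnmt3a went the other way. Mga was at 117.8, 82.96 and 97.42 CPM in MYC/Otx2 and at 228.3, 191 and 201.1 in S100b-cell libraries. The log2 change was 1.06 ± 0.26 (edgeR adjusted p 0.0226). It was lost without each S100b-cell library and without MYC/Otx2 replicates 2 and 3, with adjusted p up to 0.0831. In N1ICD tumours Mga was higher by 0.88 ± 0.26 (edgeR adjusted p 0.0362), lost in 9 of 13 alternatives with adjusted p up to 0.118, among them without each MYC/Otx2 library and without N1ICD replicates 1 and 2. Dnmt3a, a methyltransferase that sets new methylation, was at 32.07, 50.45 and 45.42 CPM in MYC/Otx2 and at 178.3, 119.2 and 110.8 in N1ICD libraries, a change of 1.67 ± 0.30 (edgeR adjusted p 0.00556). Ehmt1 and Ehmt2, which form 1 histone methyltransferase, moved in opposite directions in N1ICD against MYC/Otx2 tumours, by 0.85 ± 0.26 (edgeR adjusted p 0.0393) and -1.06 ± 0.28 (edgeR adjusted p 0.0262). The calls were lost in 8 and 7 of 13 alternatives, both without each MYC/Otx2 library and without N1ICD replicates 2 and 3, Ehmt1 also without N1ICD replicate 1, with adjusted p up to 0.12 and 0.0865. Pcgf6, L3mbtl2, Dnmt3b and Uhrf1 passed in none of the comparisons.

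**Figure D5:**
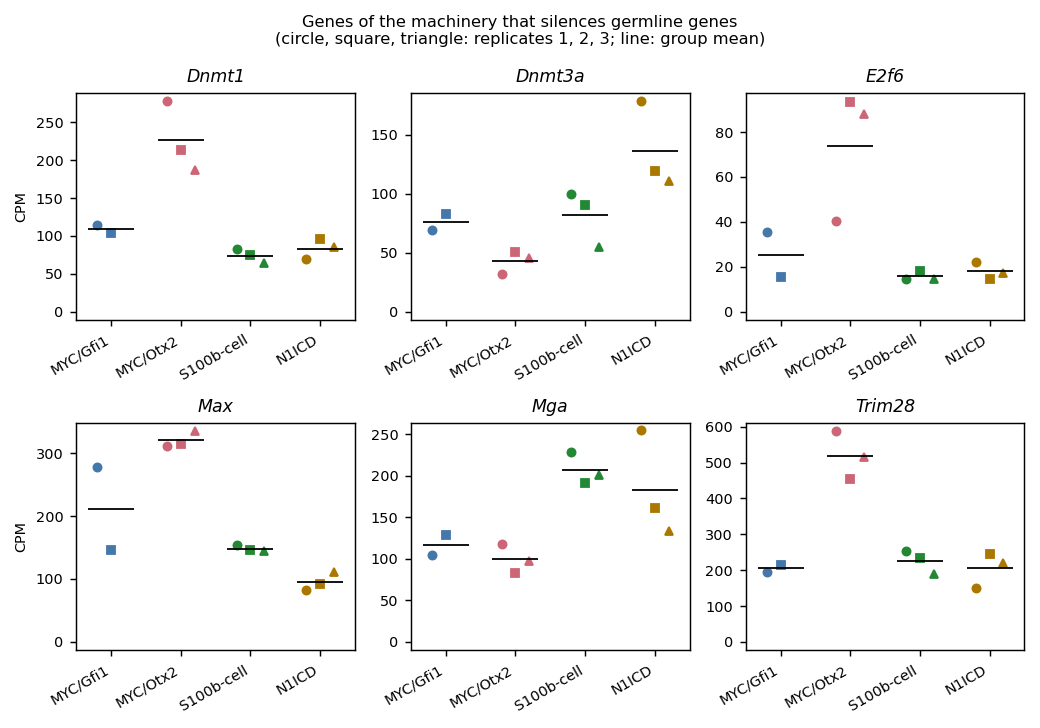
CPM of 6 genes that silence germline promoters, by library on linear axes that start near 0, with lines for group means. Dnmt1, E2f6, Max and Trim28 have their highest group mean in the MYC/Otx2 libraries, whereas Dnmt3a has its lowest there, at 32.07 to 50.45 CPM.

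In N1ICD against MYC/Gfi1 tumours 4 of the 23 genes were higher and 1 lower, 21.7% against 11.5%. Setdb1, a histone methyltransferase, was higher by 1.44 ± 0.38 (edgeR adjusted p 0.0384), lost in 8 of 12 alternatives with adjusted p up to 0.194, among them without each of the 5 libraries compared. Cbx3, a heterochromatin protein, rose in S100b-cell and N1ICD tumours over MYC/Gfi1 by 1.89 ± 0.31 (edgeR adjusted p 0.0191) and 1.88 ± 0.31 (edgeR adjusted p 0.00865). In S100b-cell against MYC/Gfi1 tumours Cbx3 was the only 1 of the 23 that passed, 4.35% against 4.35%, and it was lost in 3 of 12 alternatives, among them without MYC/Gfi1 replicate 2 and without S100b-cell replicate 1, with adjusted p up to 0.134. The Cbx3 rise in N1ICD over MYC/Gfi1 tumours was lost in 1 of 12, when only the groups compared were fitted, at 0.107. In N1ICD against S100b-cell tumours none of the 23 passed in edgeR's test, against 1.21% of all genes. An unadjusted edgeR p under 0.05 was reached by 4 of the 23 and by 2844 of all 15228 genes. DESeq2 called 1 of the 23, and its calls over all genes are given at the end.

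Further calls of silencing genes lay mostly in N1ICD tumours. Tfdp1, the E2F partner, was at 3.519 CPM ± 0.966 (SD, n = 3) there and rose over MYC/Gfi1 by 4.67 ± 1.17 (edgeR adjusted p 0.0329) and over MYC/Otx2 by 2.74 ± 0.87 (edgeR adjusted p 0.0479). The calls were lost in 7 of 12 and 9 of 13 alternatives, both without each N1ICD library, the first also without MYC/Gfi1 replicate 2 and the second without each MYC/Otx2 library, with adjusted p up to 0.134 and 0.129. Max fell against MYC/Gfi1 by 1.16 ± 0.26 on the log2 scale (edgeR adjusted p 0.023), lost in 4 of 12 alternatives, among them without MYC/Gfi1 replicate 1 and without N1ICD replicate 2, with adjusted p up to 0.17. Ehmt1 rose over MYC/Gfi1 by 1.53 ± 0.30 (edgeR adjusted p 0.015), lost in 1 of 12, when only the groups compared were fitted, at 0.138. Setdb1 was also higher than in MYC/Otx2 by 1.14 ± 0.33 (edgeR adjusted p 0.0343). That call was lost in 7 of 13 alternatives, among them without each MYC/Otx2 library and without N1ICD replicates 1 and 2, with adjusted p up to 0.116. Cbx3 was higher than in MYC/Otx2 in N1ICD tumours by 1.00 ± 0.26 (edgeR adjusted p 0.0246) and in S100b-cell tumours by 1.02 ± 0.26 (edgeR adjusted p 0.0263). Each was lost in 5 of 13 alternatives and without each MYC/Otx2 library, the first also without N1ICD replicate 3 and the second without S100b-cell replicates 1 and 2, with adjusted p up to 0.081 and 0.116.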

How the data were processed

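RNA from 11 cerebellar tumours of CD1 mice was sequenced with the QuantSeq 3′ mRNA kit, with unique molecular identifiers added at second strand synthesis, per the labels' protocols. The deposited values were raw counts per gene symbol, not normalized by the authors. STAR 2.4.1d, HTSeq 0.6.1 and build mm10 are named per the submitters' processing notes. The annotation release, the strand setting and any collapse of identifiers have no source here, so floors cover counting error only. Columns were assigned to libraries through the names that the labels give, and 0 columns were left over.

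Of 38406 genes, 15228 passed edgeR 4.0.16's filter by group (R 4.3.3). CPM values use TMM-scaled totals of the tested genes. The 4 groups entered 1 robust quasi-likelihood fit with 6 two-sided comparisons, Benjamini-Hochberg adjustment over all genes tested and a threshold of 0.05. The fit had 7 residual degrees of freedom and a common biological coefficient of variation of 0.562. An SE is the log2 change divided by the root of the F statistic. Where a group had no count, folds are bounds against 3 counts in the whole group. Likeness to Sohlh1 used log2 CPM with a prior count of 2. The fitting script was tested on simulated data.

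The 9 genes and all lists were chosen with earlier results of these data known. The germline lists held 140 symbols besides the 9 genes, of which 139 were in the table, and 23 silencing genes. Named genes were the 9, up to 6 called germline genes with the smallest p per comparison, uncalled ones with the highest CPM, a fixed set of silencing genes with every called one, and the 5 most like Sohlh1. Calr3 and Mybl1 were named after their values were seen, as were the neighbours of Sohlh1. Alternatives were DESeq2 1.42.0, limma-voom (limma 3.58.1), RLE and upper-quartile scaling, no filter, a replicate block, a fit of only the groups compared, and leaving out each library. Replicate libraries differed by a chi-square of 20.9 to 126 per degree of freedom and were no copies of each other. Beside the gonad, granule neuron, photoreceptor-like and progenitor markers given with the results, summed CPM over libraries was 37.8 to 6490 for mural, 46.7 to 202 for endothelial, 92.9 to 715 for microglia, 24.4 to 554 for oligodendrocyte, 45 to 1720 for astroglia, 3.56 to 4780 for ciliated and choroid and 0 to 4810 for B lineage markers. Their part in the results was not tested.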

Additional observations from a re-analysis of the deposited data

How the results depend on the processing

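No called gene reversed direction under any alternative: of 56 gene calls 17 held in every alternative run for them. Of the 9 chosen genes, only the 4 that passed the low-count filter were followed through the alternatives. For these 4 genes, 249 of 278 alternative log2 differences stayed within 1 SD of the main value and 29 moved by more, and 24 changed sign. RLE or upper-quartile scaling moved none of the counts of calls below by more than 1.5 times.

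Counts of germline genes called moved as follows. In N1ICD against MYC/Gfi1 tumours (6) they were 3 with limma-voom, 1 with a replicate block and 0 when only the groups compared were fitted, and 1 to 3 with 1 library left out. In S100b-cell against MYC/Gfi1 (2) they were 6 with DESeq2, 4 with limma-voom, 0 with the replicate block and 0 with only those groups, and 0 to 4 with 1 library left out. In N1ICD against S100b-cell (0) they were 3 with DESeq2 and 1 with no filter, and 0 to 1 with 1 library left out. In N1ICD against MYC/Otx2 (11) they were 7 with limma-voom, and 8 to 11 with 1 library left out. In S100b-cell against MYC/Otx2 (9) they were 4 to 6 with 1 library left out. In MYC/Otx2 against MYC/Gfi1 (3) they were 11 with DESeq2, 1 with the replicate block and 1 with only those groups, and 0 to 5 with 1 library left out, 0 without MYC/Gfi1 replicate 2 or MYC/Otx2 replicate 1.

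Silencing genes called, in the same order of comparisons, were 8 with DESeq2, 3 with no filter, 2 with the replicate block and 0 with only those groups for N1ICD against MYC/Gfi1 (5), and 2 to 6 with 1 library left out. For S100b-cell against MYC/Gfi1 (1) they were 3 with DESeq2, 2 with limma-voom and 0 with only those groups, and 0 to 5 with 1 left out. For N1ICD against S100b-cell (0) DESeq2 called 1, and 0 were called with 1 left out. For N1ICD against MYC/Otx2 (11) they were 6 with no filter and 6 with the replicate block, and 5 to 7 with 1 left out. For S100b-cell against MYC/Otx2 (6) they were 4 to 5 with 1 left out. For MYC/Otx2 against MYC/Gfi1 (2) they were 4 with DESeq2, 1 with no filter, 0 with the replicate block and 0 with only those groups, and 0 to 10 with 1 left out, the 10 without MYC/Gfi1 replicate 1.

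All genes called, by the same comparisons, were 3369 with DESeq2, 1014 with limma-voom, 789 with the replicate block, 15 with only those groups and 797 to 2214 with 1 library left out for N1ICD against MYC/Gfi1 (1754). They were 2309, 1392, 102, 0 and 12 to 1995 for S100b-cell against MYC/Gfi1 (663). For N1ICD against S100b-cell (185) they were 1367 with DESeq2, 59 with the block, 83 with only those groups and 9 to 262 with 1 left out. For N1ICD against MYC/Otx2 (3315) they were 1654 to 2775 with 1 left out. For S100b-cell against MYC/Otx2 (2727) they were 4327 with DESeq2, 4622 with only those groups and 1192 to 1750 with 1 left out. For MYC/Otx2 against MYC/Gfi1 (832) they were 2695, 1377, 209, 365 and 65 to 2170. The cause of these moves was not tested, except that a fit without 1 library has fewer samples. A lone MYC/Gfi1 library was assumed to vary like the other groups.

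The replicate numbers did not pair the libraries: over 15 same-number pairs the correlations of deviations ran from -0.169 to 0.187, 3 of them over 0.1, and 3 of 11 libraries correlated best with their own number. The shallow N1ICD libraries limit what a count of 0 shows there.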
